A study of Mus musculus with 8 samples.

Results

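The 10 circadian clock genes examined here were Arntl (also written Bmal1), Clock, Npas2, Per2, Per3, Cry1, Cry2, Dbp, Nr1d1 and Nr1d2. They were taken by name from a table of raw read counts, where each matched 1 Ensembl identifier among 37310 genes. The RNA was hippocampal, from 4 heterozygotes for a knockout allele of Nr2f1, a nuclear receptor gene of the COUP-TF family, and from 4 wild-type (WT) animals. All 8 were 3-month-old B6.129 F1 hybrids labelled male, each library came from a separate animal, and the Nr2f1 allele is described no further than heterozygous knockout in the labels. The mice were housed with 14 h of light and 10 h of dark, with lights on at 06:00. The hour at which tissue was taken is not given in the sources used here. With no series of times in the data, a difference in a clock gene cannot be converted into hours.

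Libraries held 58717305 to 90043971 gene counts. Levels are in CPM, read counts scaled to library size after TMM normalisation. Nr2f1 itself stood at 31.3 ± 2.16 CPM in heterozygotes and 52.2 ± 2.07 CPM in WT (SD, n = 4 each), and fell by 39.9% (edgeR adjusted p = 7.32e-05). Against the label of male, Xist lay between 463.4 and 592.5 CPM by total gene counts across the 8 libraries. All 14 Y-linked genes together held 3 counts over the whole series, and this held for both genotypes. Hippocampal markers were present throughout. Summed over Prox1, Dsp and C1ql2 of dentate granule cells, they came to 148.2 to 186.9 CPM in heterozygotes and 134.8 to 182.8 CPM in WT, and over Wfs1, Fibcd1 and Mpped1 of CA1 to 631.9 to 721.3 CPM in heterozygotes and 745.3 to 793.1 CPM in WT. Of the 3 CA1 markers, Wfs1 and Mpped1 fell in heterozygotes (edgeR adjusted p = 0.0362 and 0.0409), where 0.368% of all tested genes were called lower. Fibcd1 did not pass and had the opposite sign, with a log2 fold change of 0.048 (edgeR adjusted p = 0.860). None of the CA3 markers Iyd, Grik4 and Bok passed, at log2 fold changes of -0.30, -0.087 and 0.0065. All 12 choroid plexus markers were higher in every heterozygote library than in every WT library. The genotypes of 10.6% of all tested genes did not overlap, with heterozygotes higher in 1252 of 17913 tested genes. None of the 12 passed the edgeR test, and they summed to 4161.1 to 4696.4 CPM in heterozygotes and 85.8 to 2142.9 CPM in WT. The 6 ependymal markers were likewise separated, and 4 of them passed the test, where 2.62% of all tested genes were called higher. The 6 summed to 29.8 to 45.3 CPM in heterozygotes and 10.4 to 20.7 CPM in WT. Striatal markers were separated in 5 of 5 genes, with only Ppp1r1b passing (edgeR adjusted p = 0.0470). They summed to 89.0 to 146.2 CPM in heterozygotes and 68.0 to 72.1 CPM in WT. Thalamic markers were separated in 2 of 3 genes, with Prkcd passing (edgeR adjusted p = 0.0292), and summed to 54.5 to 73.2 CPM in heterozygotes and 40.9 to 46.3 CPM in WT. Meningeal markers were separated in 4 of 6 genes, none passing, and summed to 311.2 to 365.3 CPM in heterozygotes and 86.9 to 225.0 CPM in WT. In bulk tissue, fewer cells of a type and less RNA per cell cannot be told apart. The ratio of a pair of ERCC spike-in transcripts was 1.204 to 1.28 in odd-numbered and 0.165 to 0.186 in even-numbered libraries of both genotypes, so results are also given for odd and even numbers apart.

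The mammalian clock is a loop of transcription and feedback. BMAL1, the product of Arntl, pairs with CLOCK or with its paralog NPAS2, and the pair binds E-box elements to activate the Per and Cry genes, whose proteins return to repress it. A further loop runs through the nuclear receptors encoded by Nr1d1 and Nr1d2 (REV-ERB alpha and beta), which are activated by the same pair and repress Arntl through ROR elements. Dbp encodes a D-box-binding activator that is a direct output of the loop. In most tissues Arntl and Npas2 run roughly opposite to Dbp, Nr1d1 and the Per genes over the day, and the hippocampus holds such a clock outside the suprachiasmatic nucleus.

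These elements could be read in the promoters of several members. The windows from 250 bases before to 50 bases after an annotated start, from RefSeq on GRCm38.p6, were available for 9 of the 10 genes and were searched on both strands for the E-box CACGTG, its variant CACGTT, the D-box forms TTATGTAA and TTACGTAA, and the ROR element cores TAGGTCA and TGGGTCA. Members with a match are shown because they carry the elements that name the arms of the loop. Capitals mark the matches, which stand as AACGTG where CACGTT lies on the other strand.
Cry1: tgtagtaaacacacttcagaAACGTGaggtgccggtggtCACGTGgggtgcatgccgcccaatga
Cry2: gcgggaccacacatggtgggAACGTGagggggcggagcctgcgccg
Nr1d1: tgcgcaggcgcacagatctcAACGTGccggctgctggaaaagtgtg
Per3: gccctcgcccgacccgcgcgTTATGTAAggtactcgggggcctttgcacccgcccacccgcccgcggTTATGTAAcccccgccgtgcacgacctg
Arntl: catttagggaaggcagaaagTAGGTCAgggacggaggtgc

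The stretches lie at chr10:85185089-85185153, minus strand, for Cry1, chr2:92434210-92434255, minus strand, for Cry2, chr11:98775380-98775425, minus strand, for Nr1d1, chr4:151044796-151044890, minus strand, for Per3, and chr7:113207521-113207560, plus strand, for Arntl. Cry1 held an E-box and a CACGTT variant upstream of its start, Cry2 and Nr1d1 a CACGTT variant each, and Per3 a pair of D-boxes of the form TTATGTAA. Arntl held the core TAGGTCA just downstream of one of its annotated starts. Of all 32851 windows of the same length, 7.15% held CACGTG, 4.68% CACGTT, 0.938% TTATGTAA and 2.61% TAGGTCA. TTACGTAA, in 0.119% of windows, and TGGGTCA, in 3.98%, matched no member. Clock, Npas2, Dbp and Nr1d2 had no match in these windows.

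None of the 10 clock genes passed the genotype test, and the highest library of a gene exceeded its lowest by 1.08-fold for Cry2 to 1.27-fold for Arntl. Log2 fold changes of heterozygotes over WT ran from -0.12 for Per3 to 0.071 for Per2. In edgeR's quasi-likelihood test with Benjamini-Hochberg adjustment over 17913 genes, 0 of 10 members passed 0.05, where 2.99% of tested genes did (2.62% higher and 0.368% lower). DESeq2 and limma-voom also passed 0. At an unadjusted p under 0.05 there were 2, Clock and Per3, both with a negative value, where 17.2% of all tested genes reached that level, 7.11% with a negative value; DESeq2 and limma-voom also gave 2. That count was 0 without WT library 3, among even-numbered libraries, with either tissue score or without both WT libraries 1 and 3. It was 1 without heterozygote library 1 or 3, without WT library 2 or 4, among odd-numbered libraries, with the replicate block or with upper quartile scaling, and 3 without heterozygote library 2. The members' median log2 fold change was -0.020, against -0.0056 over all tested genes, and 4 of 10 were positive. Over the 10 genes, the 95% intervals ran at most down to a difference of -13.8%, for Per3, and up to 12.9%, for Cry1.

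**Figure D1:**
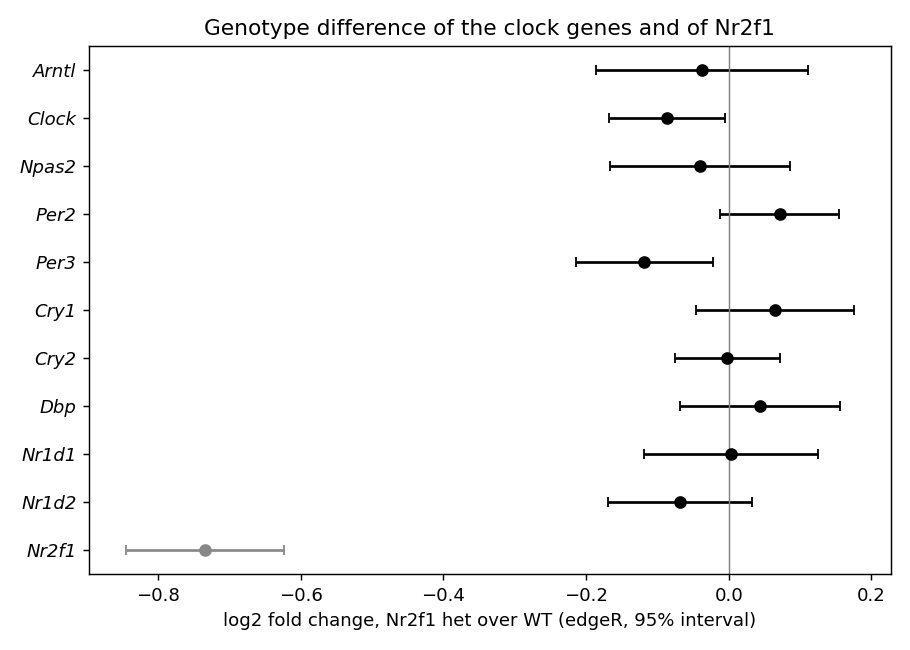
Log2 fold change of Nr2f1 heterozygotes over WT for the 10 clock genes and Nr2f1 (rows), as points with 95% intervals from edgeR, n = 4 animals per genotype. Every clock gene lies between -0.12 and 0.071, while Nr2f1 lies at -0.73.

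Among the activators, Clock alone had genotypes that did not overlap, and it did not pass the test. Clock (ENSMUSG00000029238.7), whose protein is the partner of BMAL1, stood at 103.7, 106.2, 96.6 and 106.6 CPM in heterozygote libraries 1 to 4, against 107.0, 108.3, 111.0 and 112.4 CPM in WT libraries 1 to 4. Every heterozygote library was below every WT library, by a narrow margin between 106.6 CPM, the highest heterozygote, and 107.0 CPM, the lowest WT. Clock was the 1 member of 10 whose genotypes did not overlap, where 10.6% of all tested genes did not (3.59% with heterozygotes lower). The means were 103.3 ± 4.64 CPM in heterozygotes and 109.7 ± 2.48 CPM in WT (SD, n = 4 each), and its log2 fold change was -0.087 ± 0.0376 (SE; 95% interval -0.17 to -0.0050; edgeR adjusted p = 0.259). Among odd-numbered libraries its value was -0.11 (edgeR adjusted p = 0.407). Among even-numbered libraries it was -0.053 (edgeR adjusted p = 0.861). Fitted beside the choroid plexus score, which itself separated the genotypes, Clock had -0.12 (edgeR adjusted p = 0.753). Arntl (ENSMUSG00000055116.6) stood at 33.9, 28.8, 26.8 and 32.3 CPM in heterozygote libraries 1 to 4, against 33.1, 29.7, 31.3 and 30.6 CPM in WT libraries 1 to 4. The heterozygotes held both the highest and the lowest of the 8 values, in libraries 1 and 3, and the WT values lay between them. For Arntl the log2 fold change was -0.037 ± 0.0681 (SE; 95% interval -0.19 to 0.11; edgeR adjusted p = 0.836). Npas2 (ENSMUSG00000026077.9), the paralog of Clock that is prominent in the forebrain, stood at 31.3, 37.3, 35.8 and 34.4 CPM in heterozygote libraries 1 to 4, against 37.8, 35.2, 32.9 and 37.1 CPM in WT libraries 1 to 4. The genotypes overlapped, with the lowest value in heterozygote library 1 and the highest in WT library 1. For Npas2 the log2 fold change was -0.040 ± 0.0582 (SE; 95% interval -0.17 to 0.086; edgeR adjusted p = 0.785).

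The repressors did not share a sign, Per3 and Cry2 being lower and Per2 and Cry1 higher in heterozygote means, none past the test. Per3 (ENSMUSG00000028957.6), a period gene, stood at 72.9, 77.0, 78.2 and 80.9 CPM in heterozygote libraries 1 to 4, against 82.0, 87.1, 87.9 and 78.5 CPM in WT libraries 1 to 4. Heterozygote library 4 lay above WT library 4, so the genotypes overlapped, although 3 heterozygote values lay below all WT ones. Its log2 fold change was -0.12 ± 0.0443 (SE; 95% interval -0.21 to -0.022; edgeR adjusted p = 0.183), the largest difference of the 10. It was -0.16 within odd-numbered libraries (edgeR adjusted p = 0.265) and -0.070 within even-numbered ones (edgeR adjusted p = 0.861). Per2 (ENSMUSG00000055866.7), its paralog in the core loop, stood at 55.1, 58.4, 56.6 and 57.6 CPM in heterozygote libraries 1 to 4, against 54.5, 56.2, 55.1 and 51.0 CPM in WT libraries 1 to 4. The WT group held the lowest value, in library 4, and the heterozygote group the highest, in library 2. The Per2 log2 fold change was 0.071 ± 0.0384 (SE; 95% interval -0.012 to 0.15; edgeR adjusted p = 0.373), of the opposite sign to Per3. Cry1 (ENSMUSG00000020038.9), the stronger of the cryptochrome repressors, stood at 13.4, 13.8, 13.9 and 13.1 CPM in heterozygote libraries 1 to 4, against 13.3, 13.04, 12.4 and 13.1 CPM in WT libraries 1 to 4. The genotypes overlapped, and its log2 fold change was 0.065 ± 0.0510 (SE; 95% interval -0.046 to 0.18; edgeR adjusted p = 0.569). Cry2 (ENSMUSG00000068742.5) stood at 139.3, 144.6, 146.3 and 142.8 CPM in heterozygote libraries 1 to 4, against 150.7, 139.3, 142.9 and 141.1 CPM in WT libraries 1 to 4. All 8 Cry2 values lay within 1.08-fold of each other, the narrowest range of the members, and its log2 fold change was -0.0022 ± 0.0340 (SE; 95% interval -0.076 to 0.072; edgeR adjusted p = 0.983).

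**Figure D2:**
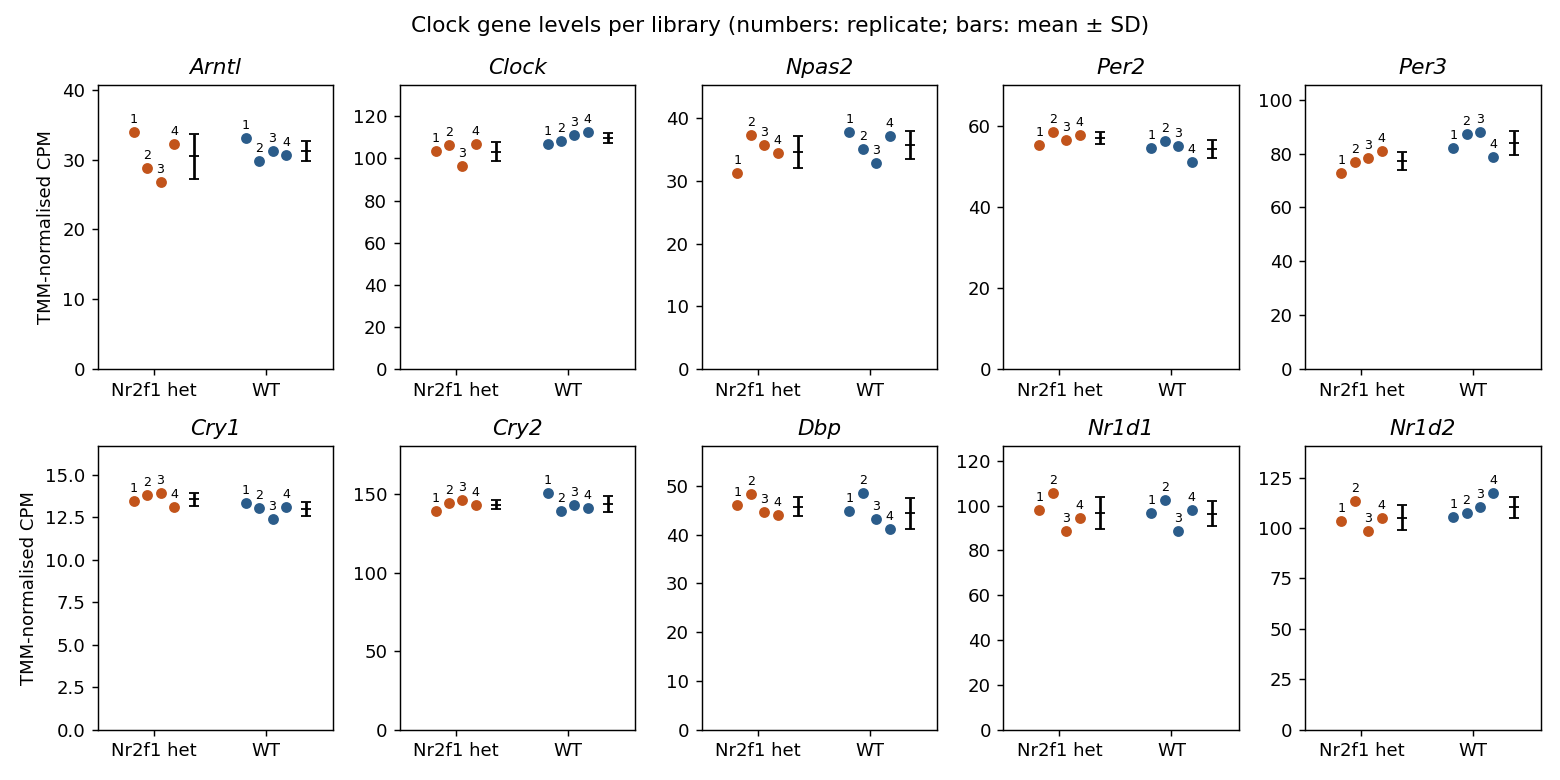
TMM-normalised CPM (vertical axes, from 0) of each clock gene in the 4 Nr2f1 heterozygote and 4 WT libraries, with the replicate number above each point and the mean ± SD beside it. Only for Clock do the genotypes not overlap, with heterozygotes up to 106.6 CPM and WT from 107.0 CPM.

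The REV-ERB genes and Dbp, which peak in the light phase in many mouse tissues, had overlapping genotypes and no difference past the test. Nr1d1 (ENSMUSG00000020889.10) stood at 98.2, 105.6, 88.7 and 94.4 CPM in heterozygote libraries 1 to 4, against 96.8, 102.4, 88.8 and 97.8 CPM in WT libraries 1 to 4. Library 2 was the highest and library 3 the lowest in each genotype, and the group means were 96.7 ± 7.10 CPM in heterozygotes and 96.5 ± 5.65 CPM in WT (SD, n = 4 each). The Nr1d1 log2 fold change was 0.0034 ± 0.0556 (SE; 95% interval -0.12 to 0.12; edgeR adjusted p = 0.984). Nr1d2 (ENSMUSG00000021775.9) stood at 103.4, 113.4, 98.7 and 105.0 CPM in heterozygote libraries 1 to 4, against 105.5, 107.4, 110.6 and 117.4 CPM in WT libraries 1 to 4. The extremes were heterozygote library 3 and WT library 4, and its log2 fold change was -0.069 ± 0.0465 (SE; 95% interval -0.17 to 0.032; edgeR adjusted p = 0.498). Dbp (ENSMUSG00000059824.4) stood at 46.0, 48.4, 44.5 and 44.1 CPM in heterozygote libraries 1 to 4, against 44.7, 48.5, 43.1 and 41.1 CPM in WT libraries 1 to 4. Library 2 was again the highest in each genotype, while WT library 4 was the lowest. For Dbp the log2 fold change was 0.044 ± 0.0516 (SE; 95% interval -0.068 to 0.16; edgeR adjusted p = 0.722). Part of Nr1d1 and Dbp lies opposite another gene. In the GENCODE annotation of GRCm38, 8.55% of the exonic bases of Nr1d1 overlap the thyroid hormone receptor gene Thra, and 18.01% of those of Dbp overlap the sphingosine kinase gene Sphk2, each on the other strand. The library kit does not mark strand, so reads from the shared bases cannot be told apart. Thra had 801.1 ± 32.95 CPM in heterozygotes and 831.4 ± 50.6 CPM in WT (SD, n = 4 each), and Sphk2 had 32.9 ± 0.689 CPM in heterozygotes and 32.3 ± 1.505 CPM in WT (SD, n = 4 each); neither passed the test (edgeR adjusted p = 0.603 and 0.798).

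Scaled by exon length, Nr1d1 and Cry2 were the most abundant members and Arntl and Cry1 the least. CPM was divided by the kilobases of exon in the GRCm38 annotation, whose gene models may differ from those used for counting. Nr1d1 was the most abundant at 31.4 ± 1.93 CPM per kb over the 8 libraries (SD, n = 8), followed by Cry2 at 22.7 ± 0.606, Nr1d2 at 19.9 ± 1.10 and Dbp at 15.1 ± 0.842 CPM per kb. The ranges of these 4 over the libraries did not overlap. Nr1d1 and Dbp share exonic bases with Thra and Sphk2 on the other strand. How reads from those bases were counted is not given, so the places of Nr1d1 and Dbp in this order carry that limit. Per2, Per3, Clock and Npas2 followed at 9.49, 8.39, 7.76 and 7.35 CPM per kb, and neighbours among these 4 overlapped. Arntl at 4.10 ± 0.312 and Cry1 at 3.97 ± 0.143 CPM per kb were the lowest and overlapped each other. Arntl was lower per length than each of its partners Clock and Npas2 in every library.

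Single libraries deviated little from a gene's mean. After subtraction of each gene's mean over the 8 libraries, 62 of 80 values of log2 CPM lay within 0.1 of 0, and the farthest, Arntl in heterozygote library 3, lay 0.198 below. Heterozygote library 3 held the lowest value of 4 members, Arntl, Clock, Nr1d1 and Nr1d2, which come from both arms. Heterozygote library 1 held the lowest of Npas2 and Per3 and the highest of Arntl. Heterozygote library 4 held no extreme. In WT library 2, Arntl deviated by -0.048, Per2 by 0.018, Per3 by 0.115, Dbp by 0.1085 and Nr1d1 by 0.087. Cry2 was at its lowest there, at -0.041, Cry1 lay at -0.023, Clock at 0.026, and Npas2 and Nr1d2 close to their means. In heterozygote library 2, Arntl deviated by -0.093, Dbp by 0.105, Nr1d1 by 0.131 and Per2 by 0.072. Npas2 there lay at 0.085 and Per3 at -0.064, so the members did not move in the same way in these libraries. The ratio of Dbp to Arntl CPM, genes of opposite phase, was 1.36, 1.68, 1.66 and 1.37 in heterozygote libraries 1 to 4, against 1.35, 1.63, 1.38 and 1.34 in WT libraries 1 to 4. Libraries 2 and 3 of the heterozygotes and library 2 of WT stood above the other 5, so the higher and the lower values were found in both genotypes. The ratio spanned 1.25-fold over the 8 libraries, that of Nr1d1 to Arntl 1.29-fold, that of Per2 to Arntl 1.30-fold and that of Per3 to Arntl 1.36-fold.

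**Figure D3:**
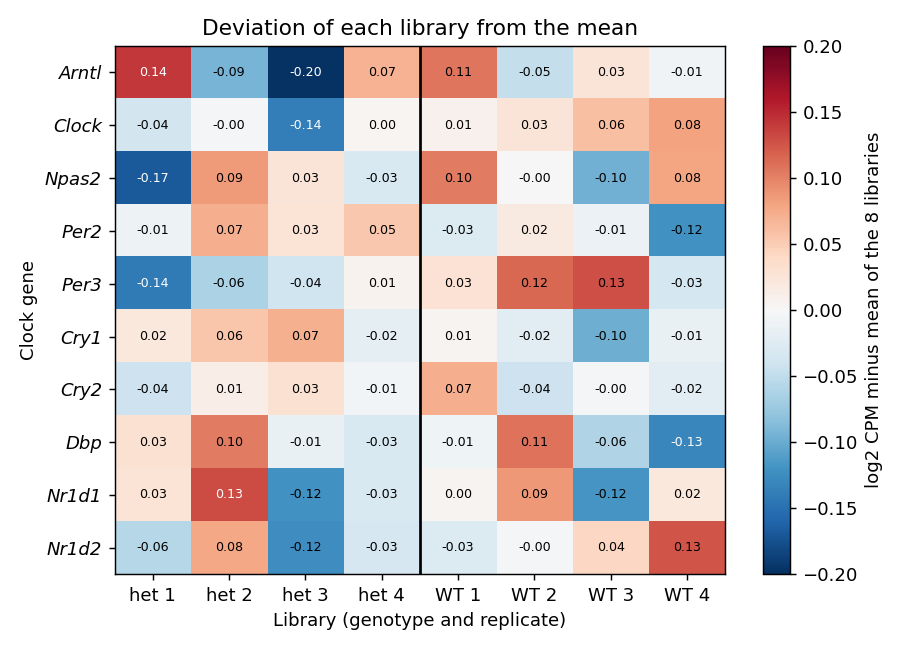
Log2 CPM of each clock gene (rows) in each library (columns, heterozygotes left of the line), minus the gene's mean over the 8 libraries. The largest deviation is that of Arntl in heterozygote library 3, 0.198 below its mean.

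No pair of clock genes was correlated past the threshold. Of 45 pairs of members, 24 had a positive and 21 a negative Pearson r of log2 CPM over the 8 libraries. None passed Benjamini-Hochberg adjustment of the exact two-sided permutation p, and 4 had an unadjusted exact p under 0.05. Arntl and Dbp had r = -0.178 (exact permutation p = 0.672, adjusted 0.964) and Spearman's rho = -0.119 (exact permutation p = 0.793), and r was -0.526 without heterozygote libraries 1 and 3, those farthest from the median of Arntl. The r of Arntl with Per2, Per3, Nr1d1 and Nr1d2 was -0.278, -0.0654, 0.0927 and 0.0698, with exact permutation p from 0.507 to 0.878 before adjustment. The lowest p belonged to Clock and Nr1d2, at r = 0.842 (exact permutation p = 0.00898, adjusted 0.404) and rho = 0.762 (exact permutation p = 0.0368, adjusted 0.551). That r was 0.498 without heterozygote library 3 and WT library 4, those farthest from the median of Clock, and 0.814 after each genotype's mean was subtracted. Clock and Cry1 had r = -0.750 (exact permutation p = 0.0383, adjusted 0.488), rho = -0.786 (exact permutation p = 0.0279, adjusted 0.551), r = -0.820 without the same libraries and r = -0.541 after each genotype's mean was subtracted. Per3 and Cry1 had r = -0.720 (exact permutation p = 0.0414, adjusted 0.488), rho = -0.833 (exact permutation p = 0.0154, adjusted 0.551) and r = -0.484 after that subtraction. Without WT libraries 2 and 3, those farthest from the median of Per3, their r was -0.359. Per2 and Dbp had r = 0.713 (exact permutation p = 0.0434, adjusted 0.488) and rho = 0.476 (exact permutation p = 0.243). Their r was 0.0383 without heterozygote library 2 and WT library 4, those farthest from the median of Per2. Leaving out a gene's farthest libraries narrows its range, so a weaker r without them does not show that a relation rests on them.

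Spread among animals of 1 genotype, taken as the SD of log2 CPM after subtraction of the genotype means, ran from 0.0412 for Cry2 to 0.118 for Arntl, with a median of 0.0727 against 0.101 over all tested genes. This SD falls as counts grow, so each member was set beside tested genes within 0.5 of its mean log2 CPM. Nr1d1 and Arntl varied more than most such genes. At their levels 11.2% and 11.4% of genes had a larger SD. The share was 17.4% for Npas2, 21.4% for Nr1d2, 22.8% for Dbp and 28.0% for Per3. It was 49.6% for Clock, 60.5% for Per2 and 68.6% for Cry2, at or below the middle of genes at their level in spread. Cry1 was among the steadiest, with 96.2% of genes at its level having a larger SD. These shares are descriptions of 8 libraries and carry no test.

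**Figure D4:**
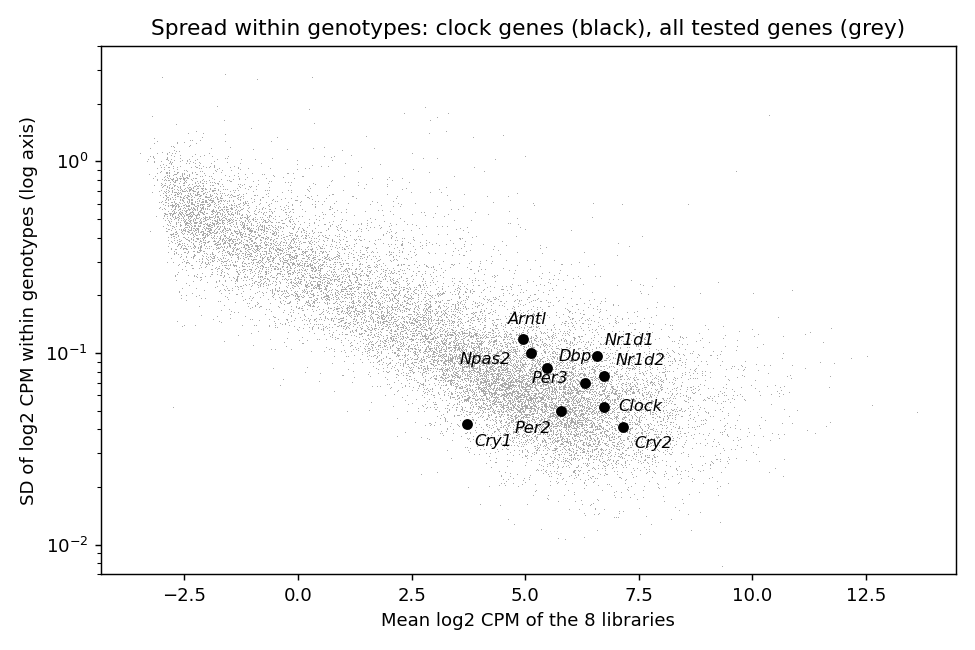
SD of log2 CPM within genotypes (vertical log axis) against mean log2 CPM over the 8 libraries for the 10 clock genes (black, named) and all tested genes (grey). Arntl and Nr1d1 lie toward the upper edge of genes at their level and Cry1 toward the lower edge.

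Genes that work with the core loop were set beside it. The 12 other loop genes include Per1, the D-box factors Tef, Hlf and Nfil3, the ROR genes, and the repressors Bhlhe40, Bhlhe41 and Ciart. None of the 12 passed the edgeR test, 3 had an unadjusted p under 0.05 where 17.2% of all tested genes did, and their median log2 fold change was -0.051. The lowest p belonged to Bhlhe40, an E-box-binding repressor also called DEC1, which had 111.5 ± 4.37 CPM in heterozygotes and 119.8 ± 2.85 CPM in WT (SD, n = 4 each), a log2 fold change of -0.10 (edgeR adjusted p = 0.149). Hlf, a PAR bZIP factor like Dbp, stood at 122.6, 168.3, 124.9 and 133.9 CPM in heterozygote libraries 1 to 4, against 158.1, 169.5, 162.3 and 183.2 CPM in WT libraries 1 to 4. Heterozygote library 2 lay within the WT range and the other 3 below it, and the log2 fold change was -0.29 ± 0.102 (SE; edgeR adjusted p = 0.188). A list of 15 genes held mainly kinases and ubiquitin ligases that modify clock proteins, while Usp2, Usp7 and Tipin on it encode neither kind. None of the 15 passed, and their median log2 fold change was -0.044. An unadjusted p under 0.05 was reached by 3, again beside 17.2% of all tested genes. Csnk1a1, a casein kinase 1 gene, and Prkaa2, an AMPK subunit gene, had the lowest p, with log2 fold changes of -0.12 and -0.18 (edgeR adjusted p = 0.156 and 0.184).

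Among 10 clock-controlled output genes in the table, 1 rose, where 2.62% of all tested genes did. Tspo, which encodes a mitochondrial membrane protein found in glia, ependyma and choroid plexus as well, stood at 3.87, 4.36, 4.49 and 4.21 CPM in heterozygote libraries 1 to 4, against 2.21, 2.97, 2.37 and 3.63 CPM in WT libraries 1 to 4. The genotypes did not overlap, and its log2 fold change was 0.59 ± 0.140 (SE; 95% interval 0.29 to 0.90; edgeR adjusted p = 0.0418). Fitted beside the choroid plexus score, its value was 0.18 (edgeR adjusted p = 0.896). Beside the ependymal score it was 0.096 (edgeR adjusted p = 0.983). Each score was itself higher in every heterozygote library than in every WT library. Beside these scores 1 and 0 of all tested genes passed in turn, so such fits cannot separate genotype from score. The median of the 10 was 0.045. Of 12 genes listed here as temperature-responsive, some of which follow the daily rhythm of body temperature, 1 rose, beside the same 2.62% of all tested genes. It was Hspa5, an endoplasmic reticulum chaperone gene, at 364.1 ± 21.0 CPM in heterozygotes, against 312.8 ± 21.8 CPM in WT (SD, n = 4 each, edgeR adjusted p = 0.0486). The other genes on that list, heat-shock and cold-induced genes among them, did not pass. Beside the choroid plexus and ependymal scores the log2 fold change of Hspa5, 0.22 without them, was 0.24 and 0.36 (edgeR adjusted p = 0.677 and 0.950). Both calls lay near the threshold, and each was lost with the older dispersion estimate of edgeR (adjusted p = 0.0511 and 0.0524). With single libraries left out, Tspo passed without WT library 4 but not without any of the other 7, and Hspa5 without WT library 3 but not without any of the other 7. The cold-induced genes Cirbp and Rbm3, chosen after their values were seen, had log2 fold changes of -0.061 and -0.0051 and did not pass (edgeR adjusted p = 0.641 and 0.976). None of 12 glucocorticoid-responsive genes passed, and 2 had an unadjusted p under 0.05, a share near the 17.2% of all tested genes. Their log2 fold changes ran from -0.38 to -0.025, with a median of -0.13, and Mt1 and Zbtb16 had the lowest p (edgeR adjusted p = 0.163 and 0.268). None of 16 immediate early genes passed or had an unadjusted p under 0.05; the lowest belonged to Nr4a2 and Egr4, at log2 fold changes of -0.42 and 0.12 (edgeR adjusted p = 0.335 and 0.415).

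Immediate early genes, which follow neuronal activity, and glucocorticoid-responsive genes had larger median spreads than the clock genes. The median SD within genotypes was 0.0727 for the clock genes and 0.0430 for the list of mainly kinases and ligases. It was 0.0820 for the outputs, 0.0876 for the temperature-responsive genes and 0.131 for the other loop genes. It was 0.253 for the glucocorticoid-responsive genes and 0.310 for the immediate early genes. An SD above that of Arntl, the most variable clock gene, was found in 13 of 16 immediate early genes, 9 of 12 glucocorticoid-responsive genes and 7 of 12 other loop genes, against 44.5% of all tested genes. These lists differ in expression level, which moves the SD, and the difference was not tested.

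**Figure D5:**
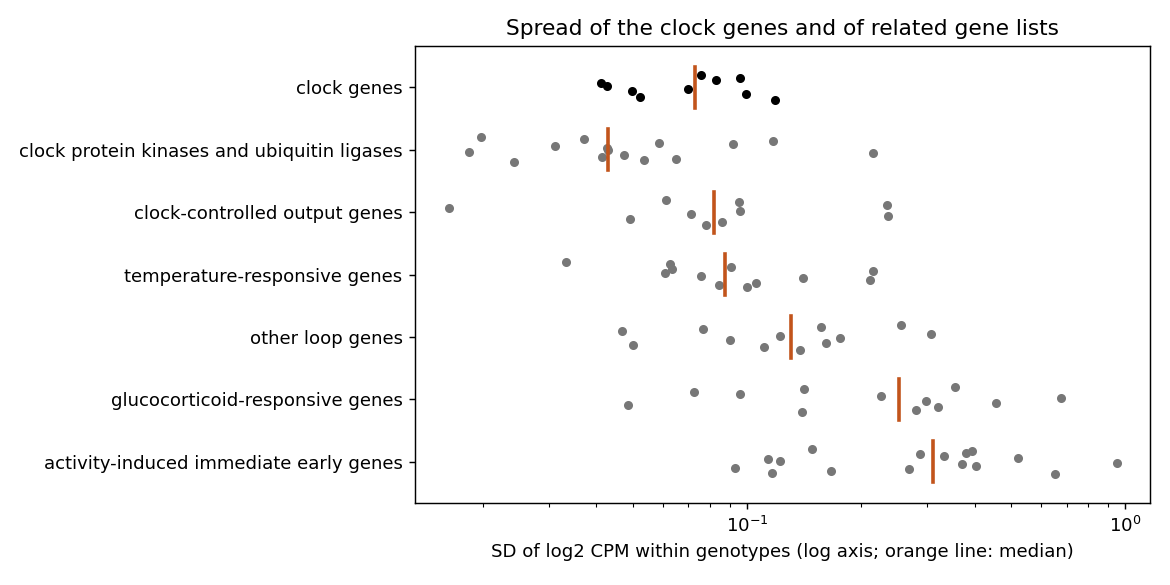
SD of log2 CPM within genotypes (horizontal log axis) of each gene in the clock gene set (black) and 6 related lists (grey), with the median as an orange line. The clock genes centre at 0.0727 and the immediate early genes at 0.310.

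The genes whose levels over the 8 libraries most resembled those of 2 members were ranked by Pearson r of log2 CPM among 13203 genes with a symbol and a mean of at least 1 CPM. The clock genes themselves and symbols of the Gm or Rik kind were left out of the ranking. For Dbp, the output gene, the genes most like it were Nkain2 (0.937), Hhip (0.934), Lmf2 (0.904), Fam102a (0.901) and Rnf113a1 (0.899). For Arntl they were Slmap (0.981), Togaram1 (0.970), Mfap3l (0.961), Slc17a5 (0.960) and Inka2 (0.958). None of these 10 is in the lists above. With 8 points, shared depth and composition, and so many genes ranked, such values are descriptions of these libraries.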

How the data were processed

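Per the labels' protocols, 10 ng of total RNA was amplified with a NuGEN Ovation kit, which does not mark strand, and sequenced on an Illumina HiSeq 2500. The authors deposited raw counts per Ensembl gene. The submitters' processing notes name builds NCBIM37 and mm9 and the tools HTSeq, FastQC, DESeq2 and STAR 2.4.2a; what each did, and with which annotation, is not given in the sources used here. There are no molecular identifiers, so the precision that depth gives covers counting error only. The 92 ERCC rows stayed out of library sizes and tests. A GENCODE table on GRCm38 gave symbols for 32620 of 37310 genes.

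Genes passing filterByExpr (minimum count 10, total 15) were scaled by TMM, and genotypes were compared by edgeR 4.0.16 under R 4.3.3, using its robust quasi-likelihood F test and version 4 dispersion, with Benjamini-Hochberg adjustment over all genes tested and a threshold of 0.05. Standard errors were obtained by dividing the fitted difference by the square root of F. Log2 CPM had a prior count of 2. DESeq2 1.42.0, limma 3.58.1, other scalings and filters, single libraries left out, a replicate block and marker scores served as alternatives. In counts simulated for this comparison over 17913 genes, recovery was 38.8% for log2 changes of 0.3, 59.7% for 0.6 and 81.8% for 1. Each size had 66 or 67 changed genes, and 6.25% of calls fell on unchanged genes. The clock gene differences, from -0.12 to 0.071, were smaller than any simulated size, so these figures do not cover them. Libraries of a genotype differed beyond sampling noise (chi-square per degree of freedom 7.42 to 25.0). Named were all members, list genes past the threshold or else the 2 with the lowest p, and the 5 genes most like Dbp and Arntl. Members and lists were chosen with earlier results of these data known.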

Additional observations from a re-analysis of the deposited data

Results flagged for a closer look

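Among the 10 clock genes, no library stood apart from the other 3 of its genotype by the criterion used, in which the gap of an extreme value to its neighbour exceeds 0.829 of the group's range. Of 42 groups of 4 values checked over the clock genes, Nr2f1 and the named list genes, 1 passed, and chance gives about 1 in 20. It was Hspa5, the chaperone gene, in WT library 3, at 345.4 CPM against 300.5 to 304.5 CPM in the other 3 WT libraries. The heterozygote libraries ran from 342.9 to 383.4 CPM, so WT library 3 lay within the heterozygote range.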

How the results depend on the processing

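The 10 clock genes were refitted under 22 alternatives, and 0 passed the threshold under any of them, the lowest adjusted p being 0.105, for Per3 without WT library 4. Clock, Per2, Per3, Cry1, Dbp and Nr1d2 kept the sign of their log2 fold change in all 22. The others lay near 0 and changed sign in some. With libraries left out in turn, Arntl ran from -0.085 to 0.021, Npas2 from -0.080 to 0.0086, Cry2 from -0.012 to 0.023 and Nr1d1 from -0.042 to 0.044. Arntl was 0.018 among even-numbered libraries, 0.047 beside the choroid plexus score and 0.0044 without WT libraries 1 and 3. Under these 3 in the same order Cry2 was 0.035, 0.065 and 0.027, and Nr1d1 -0.0022, -0.049 and -0.054. With the ependymal score Cry2 was 0.10 and Nr1d1 -0.13. Cry2 was 0.0094 with upper quartile scaling, and Nr1d1 -4.3e-05 with no low-count filter. The cause was not tested. The other lists had 2 calls, Tspo and Hspa5. The number of calls was 1 with the replicate block, 1 among even-numbered libraries, 0 with either tissue score, without WT libraries 1 and 3, with the older dispersion estimate or with a term for the run of animal numbers, and 0 to 2 with a library left out. Neither Tspo nor Hspa5 was among those called when heterozygote library 2 was left out or when even-numbered libraries were fitted alone. Nr2f1 lost its call with the ependymal score, a score that itself separated the genotypes (log2 fold change -0.55, edgeR adjusted p = 0.469).

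The number of all tested genes called, the background of these counts, was 535, and 171 to 767 with a library left out, being 321, 315, 281 without heterozygote libraries 1, 3 and 4 and 223 and 171 without WT libraries 1 and 3 in turn. It was 1200 with the DESeq2 Wald test, 78 among even-numbered libraries, 1 with the choroid plexus score, 0 with the ependymal score, 170 without both WT libraries 1 and 3 and 231 with the run of animal numbers; the last, and the older dispersion estimate, were chosen after the data were seen. With the replicate number as a block it was 406, and the block changed the call of no clock gene. Over all tested genes, same-numbered libraries did not deviate together (correlations of -0.0932 to 0.0269 over 4 pairs, none best with its own number), so they were treated as sharing a number only. Single members could differ from that. Nr1d1 and Dbp were each highest in library 2 of both genotypes, while Npas2 was lowest in heterozygote library 1 and highest in WT library 1. No pair of clock genes passed with another scaling, another prior count or any library left out.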

Other observations

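Several genes that neuronal activity or glucocorticoids induce ranged more widely over the 8 libraries than any clock gene. The genes here were chosen after their values were seen, and the difference in range was not tested. Fos, an activity-induced transcription factor gene, stood at 14.7, 27.7, 15.3 and 16.1 CPM in heterozygote libraries 1 to 4, against 8.50, 17.97, 20.5 and 33.6 CPM in WT libraries 1 to 4. The WT group held both the lowest and the highest value. Arc, an immediate early gene of synaptic plasticity, stood at 181.9, 239.9, 164.0 and 195.1 CPM in heterozygote libraries 1 to 4, against 117.4, 185.6, 208.5 and 280.6 CPM in WT libraries 1 to 4. It was lowest in WT library 1 and highest in WT library 4, as was Fos, while Dbp was lowest in WT library 4 and mid-range in WT library 1. Egr2 spanned 9.21-fold over the 8 libraries, Fos 3.96-fold and Arc 2.39-fold, where the clock genes spanned 1.08 to 1.27-fold. Plin4, a lipid droplet gene that glucocorticoids induce, spanned 3.70-fold, from 12.6 CPM in heterozygote library 1 to 46.7 CPM in WT library 4.

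Per1, a period gene that acute stimuli can also induce, stood at 86.8, 102.5, 107.0 and 108.5 CPM in heterozygote libraries 1 to 4, against 89.6, 102.4, 94.9 and 109.9 CPM in WT libraries 1 to 4. Library 1 was the lowest in each genotype, and its log2 fold change was 0.030 ± 0.0808 (SE; 95% interval -0.15 to 0.21; edgeR adjusted p = 0.895). Ciart, a repressor of the loop also called Chrono, stood at 9.94, 13.9, 12.7 and 11.8 CPM in heterozygote libraries 1 to 4, against 12.4, 13.6, 11.7 and 12.6 CPM in WT libraries 1 to 4. Heterozygote library 1 was the lowest, as it was for Per1, Npas2 and Per3, and its log2 fold change was -0.052 ± 0.0881 (SE; 95% interval -0.24 to 0.14; edgeR adjusted p = 0.821). Of 6 suprachiasmatic and hypothalamic markers, Avp and Six6 lay nearest the detection floor. Avp, the vasopressin gene, had 0.0493 to 0.199 CPM in heterozygotes, against 0.0556 to 0.173 CPM in WT, and Six6 had 0 to 0.0885 CPM in heterozygotes, against 0 to 0.0691 CPM in WT. A floor of 3 counts is 0.0333 to 0.0511 CPM by library. Both were too low to test. The other 4 markers on that list were tested and none passed. Vip had 14.99 to 19.18 CPM in heterozygotes, against 16.04 to 19.96 CPM in WT. Rgs16, which is also on the list of clock-controlled output genes, had 7.26 to 11.14 CPM in heterozygotes, against 7.02 to 8.36 CPM in WT. Lhx1 was lower, at 0.204 to 0.506 CPM in heterozygotes and 0.125 to 0.346 CPM in WT. Prok2 had 0.0996 to 0.201 CPM in heterozygotes and 0.138 to 0.326 CPM in WT. Its values overlapped those of Avp, so Prok2 lay near the floor as well, although it was tested.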
